A study of Mus musculus with 18 samples.

Results

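The levels of 39 genes of rod phototransduction and of the rod outer segment were measured in the retina of male mice, by RNA sequencing of 18 libraries. The genes were chosen by symbol from the known biology of the rod, with earlier results of these data known. All 39 were found among the 35006 gene names of the count files and passed the filter on low counts. The groups were WT (C57BL/6J mice given water, 3 libraries), WT + NACET (6), Akita (4) and Akita + NACET (5). Akita mice are diabetic through a dominant allele of Ins2, 1 of the 2 insulin genes of the mouse, and the C57BL/6J mice were the normoglycemic controls. NACET, the ethyl ester of N-acetylcysteine and a cell-permeable source of cysteine, was dissolved at 0.33 mg/mL in the water the mice drank, for a daily dose of 50 mg/kg, from 4 to 24 weeks of age, and the other groups drank water alone. Only males were used, because the diabetes of female Akita mice is milder. The comparisons asked what diabetes did to the retina, what NACET did to it in diabetic and in normoglycemic mice, and whether both genotypes answered alike. The sources used here do not tie libraries to single animals, so the p-values measure the spread between these libraries.

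Rods are the photoreceptors of dim light and the most numerous cells of the mouse retina. In their outer segment, a stack of membrane discs, light activates the visual pigment, the pigment activates the G protein transducin, and transducin releases phosphodiesterase 6 from its inhibitory subunit. The enzyme then breaks down cGMP, the cation channels held open by cGMP close, and the cell hyperpolarizes. Arrestin, the pigment kinase and a GTPase-activating complex end the response, while guanylate cyclases and their calcium-sensing activators restore cGMP. The transcription factors CRX, NRL and NR2E3 keep these genes on in rods. Not all of the 39 genes are confined to rods. As examples only, CRX acts in cones and bipolar cells as well, and Gnb1, Gnb5, Prom1 and Unc119 are used by many cells. The name rod genes here stands for this list and not for expression in rods alone.

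The stretches just before the transcription starts of some of these genes hold the short letters that CRX and its relative OTX2 bind. Of the stretches 4 are shown, the ones that hold these letters more than once and the one with the most kinds of match. They are the 250 bases before the start in the RefSeq annotation of the build GRCm38.p6, written 5′ to 3′ along the gene, and 31 of the 39 genes had such a window that was used. Capitals mark 4 kinds of match: TAATCC, the core of CRX and OTX2 sites, which reads GGATTA on the other strand, TGCTGA, a core of NRL sites, which reads TCAGCA there, AAGTCA, a core of NR2E3 sites, which reads TGACTT, and AGGTCA, a core of other nuclear receptors, which reads TGACCT. Crx, Cngb1 and Gucy2f hold TAATCC more than once, and Sag holds 3 of the 4 kinds.
Crx (chr7:15879956-15880205, minus strand): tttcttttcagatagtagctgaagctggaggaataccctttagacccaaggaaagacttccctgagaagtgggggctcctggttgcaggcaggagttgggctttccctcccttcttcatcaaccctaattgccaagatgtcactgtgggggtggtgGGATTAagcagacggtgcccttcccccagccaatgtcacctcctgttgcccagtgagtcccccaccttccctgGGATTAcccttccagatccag
Cngb1 (chr8:95306586-95306835, minus strand): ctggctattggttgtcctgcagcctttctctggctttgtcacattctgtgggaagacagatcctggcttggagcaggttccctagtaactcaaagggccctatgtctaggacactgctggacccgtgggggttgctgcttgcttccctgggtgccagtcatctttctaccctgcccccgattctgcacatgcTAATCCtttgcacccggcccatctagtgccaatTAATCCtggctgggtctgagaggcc
Gucy2f (chrX:142196937-142197186, minus strand): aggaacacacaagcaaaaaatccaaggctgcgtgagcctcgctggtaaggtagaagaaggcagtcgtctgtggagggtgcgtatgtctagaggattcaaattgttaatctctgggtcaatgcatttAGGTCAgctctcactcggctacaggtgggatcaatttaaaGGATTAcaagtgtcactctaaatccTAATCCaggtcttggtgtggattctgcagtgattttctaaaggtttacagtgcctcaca
Sag (chr1:87803430-87803679, plus strand): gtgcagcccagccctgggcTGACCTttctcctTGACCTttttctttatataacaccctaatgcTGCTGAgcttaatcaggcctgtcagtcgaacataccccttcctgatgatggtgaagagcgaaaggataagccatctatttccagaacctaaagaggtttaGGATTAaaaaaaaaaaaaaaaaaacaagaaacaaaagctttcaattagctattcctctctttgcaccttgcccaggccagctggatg

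TAATCC on either strand stood in 12 of the 31 windows, 38.71% (95% Wilson interval 23.73 to 56.18%), against 6.38% of the same stretch in 27025 promoters, 1 for each gene of the table. The 12 genes were Abca4, Aipl1, Cnga1, Cngb1, Crx, Gnb5, Gngt1, Guca1a, Gucy2e, Gucy2f, Rbp3 and Sag. In the Crx window the matches began at -94 and -21 from the start, in Cngb1 at -58 and -25, and in Gucy2f at -84 and -59. Those of the other 9 genes began between -87 and -42, apart from Cnga1 at -228 and Gnb5 at -6. The other letters were not rarer or commoner than elsewhere beyond their intervals: TGCTGA stood in 19.35% of the members' windows (9.19 to 36.28%) and in 15.82% of all, AGGTCA in 22.58% (11.4 to 39.81%) and 13.84%, and AAGTCA in 6.45% (1.79 to 20.72%) and 13.12%. Related genes share ancestry and base composition, the intervals cover counting error only, and a match of letters is a description of the sequence and not of binding.

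**Figure D1:**
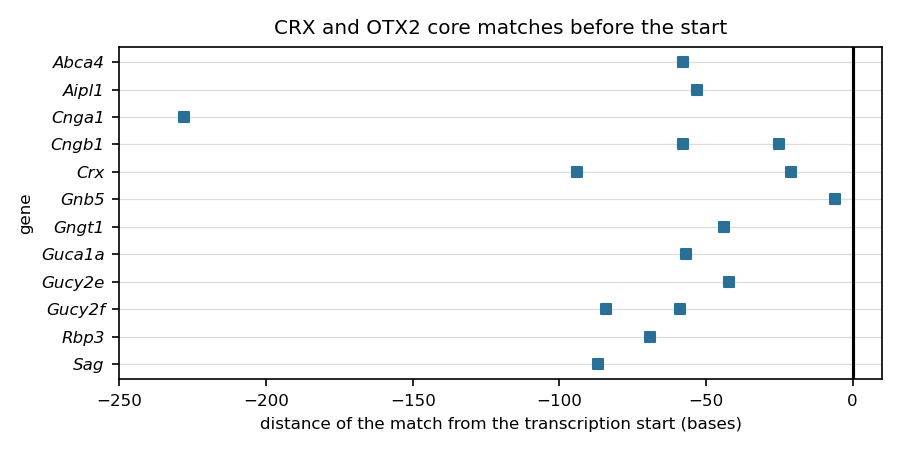
Distance of each TAATCC match (either strand) from the transcription start, in bases, for the 12 rod genes that hold one in the 250 bases before the start. All but the matches of Cnga1 (-228) and Gnb5 (-6) began between -94 and -21.

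Between 11495596 and 17814479 reads fell in genes per library. Reads outside annotated exons took 14.9 to 17.1% of all reads aligned once in WT, 9.55 to 16.5% in WT + NACET, 9.67 to 13.3% in Akita and 14.3 to 19.8% in Akita + NACET, so that this share was lower in every Akita library than in any WT or Akita + NACET library. Akita replicate 4 had the lowest TMM factor, edgeR's scaling of library sizes, (0.803) and Akita + NACET replicate 5 the highest (1.13). The summed level of the 11 lens genes tested ran from 4.07 to 25880 CPM (CPM, counts scaled to a common library size after TMM) over the 18 libraries. In bulk tissue, fewer rods and less RNA per rod cannot be told apart.

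Levels of different genes are compared here per length, as RPKM, that is, CPM divided by the length in kilobases of the gene's annotated exons. This length joins all annotated exons of a gene, whichever transcripts the retina uses, such as 8894 bases for Sag and 1040 for Rcvrn. The order of genes by RPKM therefore depends on the annotation. Transducin and the disc proteins led: Gnat1, the α subunit of rod transducin, averaged 6463 RPKM over the 18 libraries, Gnb1, its β subunit, 6039, and phosducin, Pdc, which binds the βγ dimer, 5614. Rom1 and Prph2, partners at the rim of the discs, followed with 4592 and 2019 RPKM. Of the 39 genes, 13 averaged at least 1000 RPKM and 8 under 100, and Gnat1 stood 468-fold above the lowest, Rdh8, a retinol dehydrogenase of the outer segment, at 13.8 RPKM.

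Within phosphodiesterase 6, the inhibitory subunit Pde6g (1268 RPKM) and the catalytic subunit Pde6b (1161) exceeded the catalytic subunit Pde6a (567). Of the channel, the α subunit Cnga1 stood at 252 RPKM and the β subunit Cngb1 at 41.6, while the sodium, calcium and potassium exchanger Slc24a1 stood at 284. Recoverin, Rcvrn, the calcium sensor that holds back the pigment kinase, averaged 1868 RPKM, arrestin, Sag, 1089 and the kinase Grk1 154. Without division by length the order differed, with mean WT levels of 1755 CPM for Rcvrn, 9125 for Sag and 1104 for Grk1. The calcium sensors of the cyclases, Guca1a and Guca1b, stood at 1840 and 1744 RPKM, far above the cyclases Gucy2e and Gucy2f at 38.97 and 16.2. Nrl averaged 975 RPKM, Nr2e3 306, Crx 269 and Esrrb, a nuclear receptor that rods need to survive, 37.8. The retinoid carrier Rbp3 averaged 1004 RPKM, and the matrix proteoglycans Impg1 and Impg2 136 and 40.8. Even Rdh8 had at least 217 reads in each library. Nr2e3 shares 61 exon bases with the predicted gene Gm15507 on its own strand, and Prom1 and Abca4 share 188 and 16 with Gm16401 and Gm16078 on the opposite strand, and reads there could not be told apart in counts made without regard to strand.

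**Figure D2:**
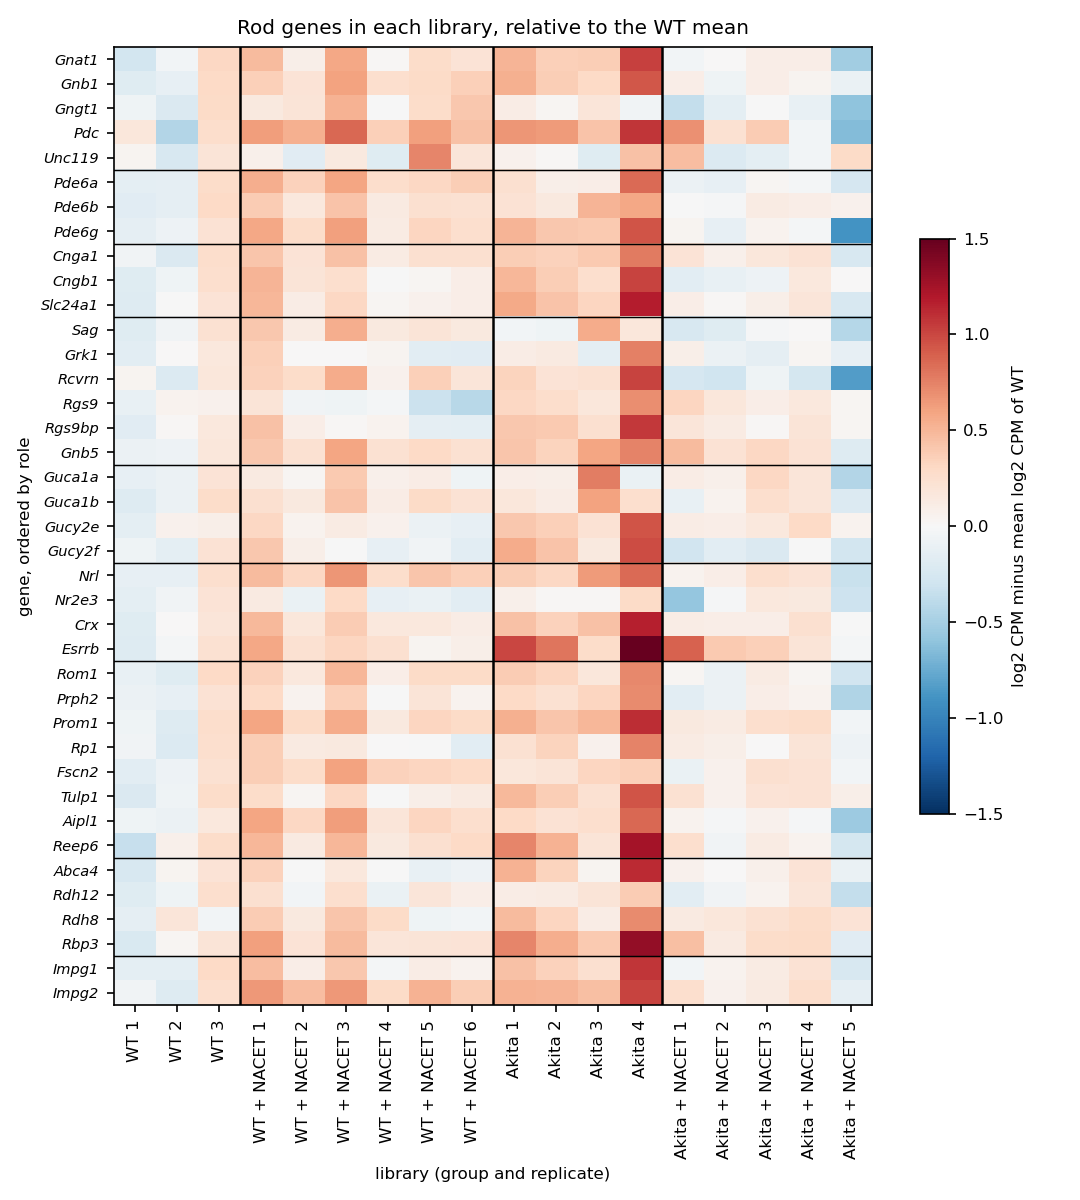
Each of the 39 rod genes (rows, ordered by role, lines between roles) in each of the 18 libraries (columns), as log2 CPM minus the mean log2 CPM of the 3 WT libraries (colour scale from -1.5 to 1.5). Akita replicate 4 is the most red column, and Akita + NACET replicate 5 and the libraries WT 1 and WT 2 are mostly blue.

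Taken as a sum, the 39 genes made up 9.20 to 13.9% of all gene counts. The summed level was 90158, 92350 and 119471 CPM in WT, 130759, 121722, 127464 and 173678 in Akita, and 103613, 97951, 108262, 104967 and 81255 in Akita + NACET. In WT + NACET it ran from 109092 to 142707 CPM. Each Akita library lay above all Akita + NACET libraries and, with TMM scaling, above all WT libraries, but with library totals Akita replicate 2 (118081 CPM) was just below WT replicate 3 (118782 CPM). WT + NACET overlapped WT through WT replicate 3. Group means were 100660 ± 16328 CPM (SD, n = 3) in WT, 122210 ± 12724 (n = 6) in WT + NACET, 138410 ± 23809 (n = 4) in Akita and 99210 ± 10706 (n = 5) in Akita + NACET. The library with the highest sum, Akita replicate 4, had 10.2% of its reads outside exons, and that with the lowest, Akita + NACET replicate 5, had 19.8%, the highest share of all.

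**Figure D3:**
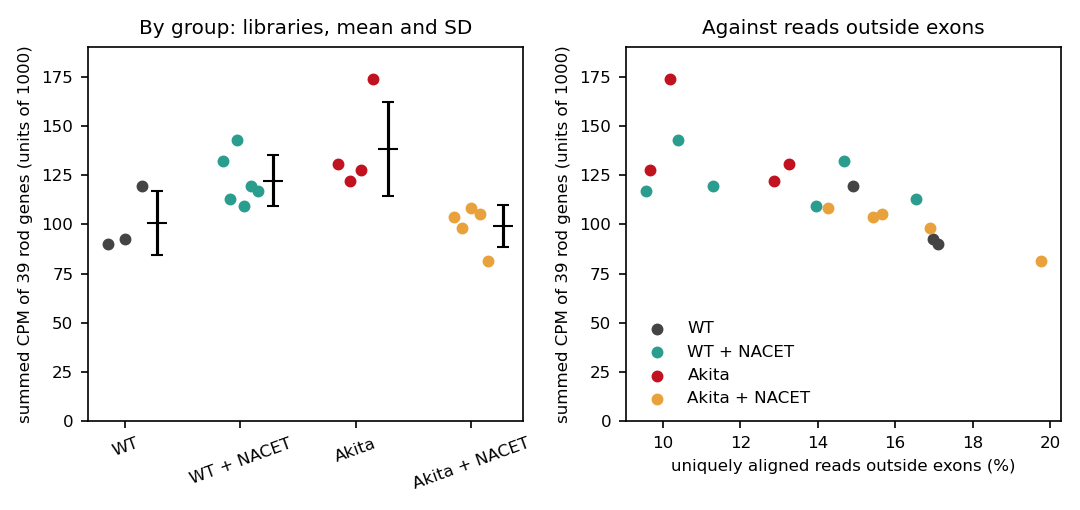
Summed CPM of the 39 rod genes in units of 1000, by group on the left (points are libraries, bars the mean and SD) and against the percentage of uniquely aligned reads outside exons on the right. The 4 Akita libraries sit between 121722 and 173678 CPM, above all WT and Akita + NACET libraries with this TMM scaling (with library totals Akita replicate 2 is below WT replicate 3), and have 9.67 to 13.3% of reads outside exons.

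In the diabetic retina the rod genes stood higher than in WT. Of the 39 genes, 16 rose (41.0%) and none fell in Akita vs WT, where 3.96% of the 16183 genes tested rose (edgeR's quasi-likelihood test, Benjamini-Hochberg adjusted p at most 0.05). The fitted change was above 0 for all 39 genes, with a median log2 change of 0.50 (0.054 to 1.08) against -0.015 for all genes tested, but with library totals in place of TMM it was above 0 for 34, as the median of all genes itself moved to -0.21. In 19 of the 39 (48.7%) every Akita library was above every WT library, which held for 11.2% of all genes tested, and with library totals this was so for 13 of the 39 and 3.06% of all genes. The risen genes were spread over the roles: 3 of the 3 channel and exchanger genes, 3 of 4 transcription factors, 3 of 8 disc and axoneme genes, 2 of 4 of cGMP resynthesis, 2 of 6 of the shut-off, and 1 each of the transducin, retinoid and matrix genes, but none of the 3 phosphodiesterase subunits.

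Impg2, a proteoglycan of the matrix around the outer segments (mm9 chr16:56204426-56273869, plus strand), had the smallest p. Its level was 283, 256 and 348 CPM in WT and 419.6, 417, 401 and 594 in Akita, so the groups did not overlap. It rose with a log2 change of 0.63 ± 0.14 (SE), a ratio of 1.55 (edgeR adjusted p = 0.019). Prom1, a membrane protein of the forming discs, stood at 1142, 1049 and 1435 CPM in WT and 1740.2, 1595, 1696 and 2580.2 in Akita. Prom1 rose, with a ratio of 1.57 and a log2 change of 0.65 ± 0.16 (SE, edgeR adjusted p = 0.0235). Rbp3, the carrier of retinoids between photoreceptors and pigment epithelium, gave 3507, 4202 and 4689 CPM in WT and 6790.4, 5970.3, 5383 and 10223 in Akita. The change of Rbp3 on the log2 scale was 0.78 ± 0.19 (SE), a ratio of 1.72 (edgeR adjusted p = 0.0236). In both genes the 4 Akita libraries lay above the 3 of WT. Crx, the photoreceptor homeobox factor with TAATCC in its own promoter window, stood at 617, 705 and 796 CPM in WT and 952, 896, 953 and 1572 in Akita. By edgeR, Crx rose to 1.55 times the level in WT (log2 change 0.63 ± 0.16, SE, adjusted p = 0.0264). For these 4 genes Akita replicate 4 was the highest of all libraries.

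The exchanger gene Slc24a1 was at 1088, 1235 and 1436 CPM in WT and 1852, 1679.7, 1559.5 and 2826 in Akita, again without overlap. It rose with a log2 change of 0.66 ± 0.17 (SE), a ratio of 1.58 (edgeR adjusted p = 0.0291). Its partners in the membrane, Cngb1 and Cnga1, rose by 0.55 and 0.47 on the log2 scale. Nrl, the factor that sets the rod fate (mm9 chr14:56137815-56143818, minus strand), was at 1813, 1819 and 2348 CPM in WT and 2564, 2448, 3084 and 3578 in Akita. Nrl rose, with a ratio of 1.46 and a log2 change of 0.55 ± 0.15 (SE, edgeR adjusted p = 0.0359). The largest change was that of Esrrb, at 142, 160.0 and 190.1 CPM in WT and 327, 284, 197 and 578 in Akita, where the spread between the Akita libraries was wide. The change of Esrrb on the log2 scale was 1.08 ± 0.28 (SE), a ratio of 2.11 (edgeR adjusted p = 0.0304). Gnb1 was at 13981, 14483 and 19485 CPM in WT and 22896, 20367, 19445 and 30082 in Akita, and WT replicate 3 lay just above Akita replicate 3. By edgeR, Gnb1 rose to 1.45 times the level in WT (log2 change 0.54 ± 0.15, SE, adjusted p = 0.0355). The others that rose were Rgs9bp and Gnb5 of the GTPase-activating complex, both cyclases Gucy2e and Gucy2f, and Tulp1 and Reep6, which take part in the transport of proteins to the outer segment.

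Among the genes without a call, several had estimates as large as those with one but a wider spread. Gnat1 gave 10006, 11763 and 15024 CPM in WT and 17273, 15446, 15626 and 24551 in Akita, with all Akita libraries above those of WT. The log2 change was 0.57 ± 0.19 (SE, edgeR adjusted p = 0.0629), with a 95% interval from 0.18 to 0.96. Pde6g, the brake of phosphodiesterase, was at 2259.9, 2361 and 2879 CPM in WT and 3530.1, 3292, 3264 and 4785 in Akita, likewise without overlap. For Pde6g the log2 change was 0.57 ± 0.19 (SE, edgeR adjusted p = 0.0675), with a 95% interval from 0.17 to 0.97. At the other end, Gngt1, the γ subunit of rod transducin, was at 4460.1, 4039 and 5689 CPM in WT and 5056, 4776, 5287 and 4519.9 in Akita, and the Akita libraries lay within the WT range. The log2 change was 0.054 ± 0.15 (SE, edgeR adjusted p = 0.845), with a 95% interval from -0.26 to 0.36. Nr2e3, which silences cone genes in rods, and Sag were not called, with 0.10 ± 0.16 and 0.17 ± 0.16 (log2, SE). Guca1a was at 1356, 1389 and 1707 CPM in WT and 1576, 1562, 2504 and 1379 in Akita, where replicate 3, and not replicate 4, was the highest. For Guca1a the log2 change was 0.24 ± 0.18 (SE, edgeR adjusted p = 0.409), with a 95% interval from -0.14 to 0.62.

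The count of 16 rested on single libraries, and each of the 16 calls held in 10 (Cnga1) to 15 (Impg2) of 20 other ways of fitting. It was 0 without Akita replicate 4, where 1.44% of all genes were called. Without WT replicate 1 or WT replicate 2 it was 0, and none of the 16485 and 16432 genes then tested was called. It was 9 without Akita replicate 1 (5.37%) and 20 without WT replicate 3 (9.2%). Without Akita replicate 4 the members' median log2 change was 0.33, with 38 of 39 above 0. When the percentage of reads off the exons entered the fit as a covariate, no rod gene was called (median 0.28, 33 of 39 above 0), and no other gene either. Every Akita library had a lower percentage than any WT library, so this fit cannot tell percentage and group well apart. Whether the percentage accounts for the changes was not tested.

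After NACET the rod genes of diabetic mice stood lower than in untreated diabetic mice. In Akita + NACET vs Akita, 21 of the 39 genes fell (53.8%) and none rose, where 5.14% of all genes tested fell. The fitted change was below 0 for all 39, with a median log2 change of -0.45 (-0.81 to -0.0087) against -0.0032 for all genes tested, and for 33 with library totals, under which the median of all genes moved to 0.20. In 20 genes (51.3%) every Akita + NACET library lay below every Akita library, which held for 7.43% of all genes tested, and with library totals this was so for 12 of the 39 and 1.15% of all genes. The Akita libraries enter this comparison and that with WT alike, so the opposite directions are not independent of each other. The genes that fell were 3 of the 3 channel and exchanger genes, both matrix genes, 2 of 3 phosphodiesterase subunits, 5 of 8 disc and axoneme genes, 2 of 4 transcription factors, 2 of 4 retinoid genes, 2 of 5 transducin genes, 2 of 6 of the shut-off and 1 of 4 of cGMP resynthesis.

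Gucy2f, the less abundant of the cyclases (mm9 chrX:138515703-138631474, minus strand), had the smallest p. It was at 179, 163, 135 and 239 CPM in Akita and 99.6, 109, 104, 121 and 100.1 in Akita + NACET, without overlap. It fell with a log2 change of -0.74 ± 0.14 (SE), a ratio of 0.597 (edgeR adjusted p = 0.0161). Rcvrn (mm9 chr11:67508828-67516835, plus strand), whose change was the largest of the 39, was at 2204, 2017, 2045 and 3520.5 CPM in Akita and 1464, 1417, 1675, 1449 and 976 in Akita + NACET. Rcvrn fell, with a ratio of 0.571 and a log2 change of -0.81 ± 0.16 (SE, edgeR adjusted p = 0.0161). Pde6g gave 2561, 2278, 2581, 2435 and 1334 CPM in Akita + NACET, all below the lowest Akita library named above. The change of Pde6g on the log2 scale was -0.73 ± 0.17 (SE), a ratio of 0.602 (edgeR adjusted p = 0.0204). Cngb1, the modulatory subunit of the channel, was at 257, 235, 217 and 368 CPM in Akita and 164, 168, 172, 204 and 183 in Akita + NACET. By edgeR, Cngb1 fell to 0.662 times the level in Akita (log2 change -0.59 ± 0.14, SE, adjusted p = 0.0206). Replicate 5 of Akita + NACET was far below the other 4 in Rcvrn and Pde6g but within their range in Cngb1.

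Gnat1 stood at 11794, 12164, 12905, 12952 and 8426 CPM in Akita + NACET, below all 4 Akita libraries. It fell with a log2 change of -0.65 ± 0.16 (SE), a ratio of 0.639 (edgeR adjusted p = 0.0238). Gnb1 was at 16951, 15064, 16992, 16323 and 14758 CPM there, also without overlap. Gnb1 fell, with a ratio of 0.691 and a log2 change of -0.53 ± 0.13 (SE, edgeR adjusted p = 0.0215). Rom1, at the disc rim, was at 7989.8, 7643, 6882 and 10119 CPM in Akita and 6276, 5750.1, 6674, 6276 and 5026 in Akita + NACET. The change of Rom1 on the log2 scale was -0.44 ± 0.13 (SE), a ratio of 0.736 (edgeR adjusted p = 0.036). Its partner Prph2 also fell, by 0.50 on the log2 scale. Aipl1, the chaperone of phosphodiesterase 6, was at 1258, 1193, 1220.3 and 1863 CPM in Akita and 1064, 1008, 1069, 1006 and 702 in Akita + NACET. By edgeR, Aipl1 fell to 0.701 times the level in Akita (log2 change -0.51 ± 0.14, SE, adjusted p = 0.0336). Impg1 was at 571, 533, 496 and 884 CPM in Akita and 409.9, 435, 459, 489 and 357 in Akita + NACET, where each library was below the lowest of Akita. It fell with a log2 change of -0.53 ± 0.15 (SE), a ratio of 0.692 (edgeR adjusted p = 0.0382). Not called were Unc119, a carrier of lipidated transducin, with -0.0087 ± 0.18 (log2, SE), Guca1a with -0.18 ± 0.16, and Esrrb, with a large estimate of -0.69 ± 0.24 and an edgeR adjusted p of 0.0683.

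Of 22 other ways of fitting, the calls of Gucy2f and Rcvrn held in 19, Pde6g in 18, Cngb1 in 17, Gnat1 and Gnb1 in 16, Prph2 in 15, Aipl1 in 13 and Rom1 and Impg1 in 12, and those of Abca4, Cnga1 and Rgs9bp in 8, the fewest. Here too single libraries set the count of 21. It was 0 without Akita replicate 4 and 3 without Akita + NACET replicate 5, where 0.626% of all genes were called. It was 5 without Akita + NACET replicate 2 (2.64%). It was 14 without Akita replicate 1 (5.0%) or Akita + NACET replicate 4 (5.41%). Without Akita replicate 4 the median log2 change was -0.31 and 38 of 39 genes were below 0, and only 1 of the 16197 genes then tested was called. With both Akita replicate 4 and Akita + NACET replicate 5 left out, a choice made after seeing the data, the count was 0 in this comparison and 5 in Akita vs WT. When the percentage of reads off the exons entered the fit, it was 0, with a median of -0.29 and 36 of 39 below 0. Every Akita library had a lower percentage than any Akita + NACET library, so percentage and group cannot be told well apart here either.

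**Figure D4:**
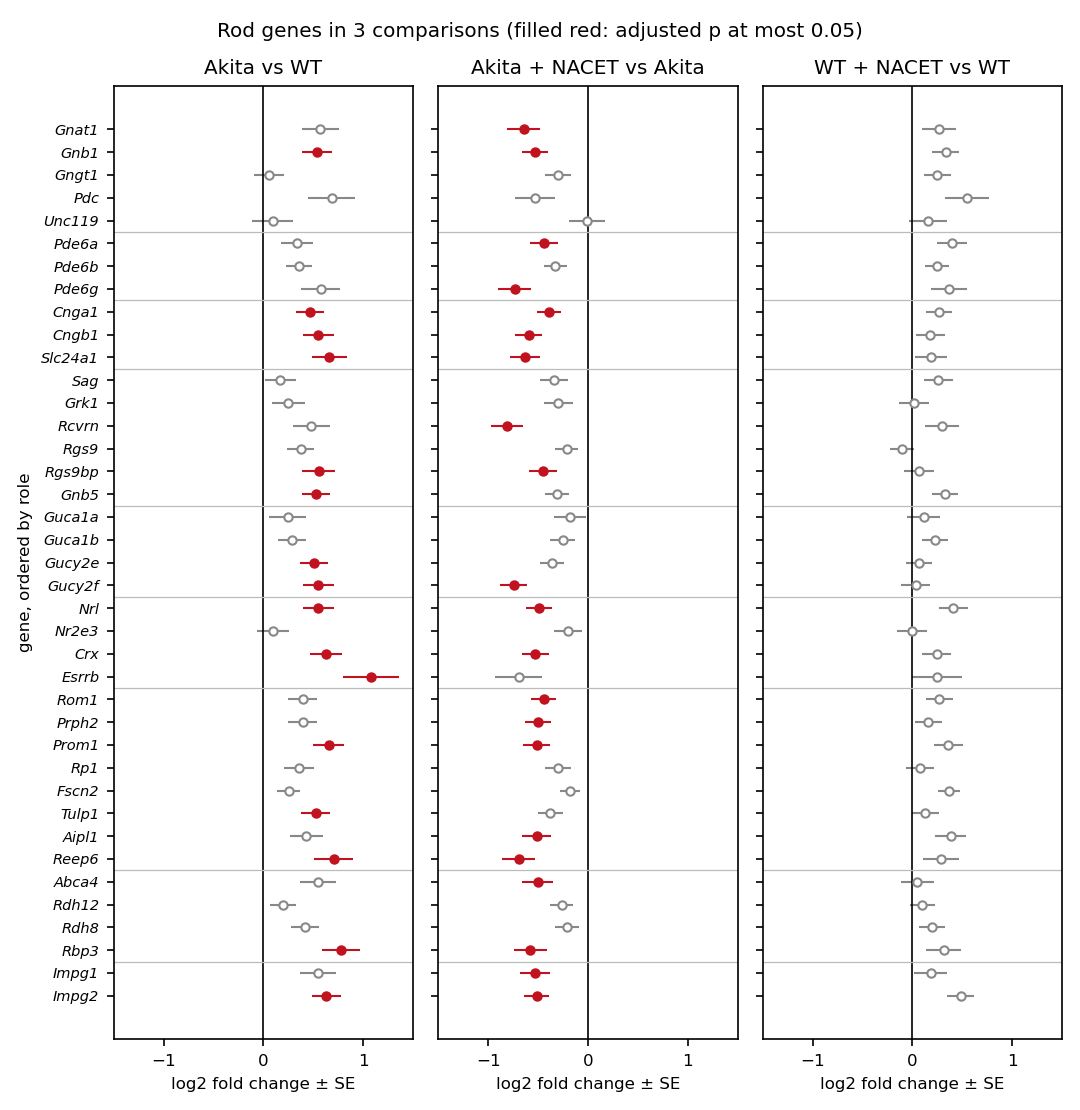
Log2 fold change (point) with SE (bar) of each of the 39 rod genes, by role, in 3 comparisons, where red points passed an edgeR adjusted p of 0.05. With TMM scaling all 39 points lie right of 0 in Akita vs WT (34 with library totals) and left of 0 in Akita + NACET vs Akita (33 with library totals), and none is red in WT + NACET vs WT.

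NACET in normoglycemic mice gave no call among the rod genes, where 1.48% of all genes tested passed in either direction. By edgeR 10 of the 39 had an unadjusted p under 0.05 and the lowest adjusted p was 0.0672. DESeq2 called 2 when fitted to all libraries, where it called 4.6% of all genes tested. Fitted to these groups alone, it called 8, and 6.52% of all genes. The estimate was above 0 for 37 genes, with a median log2 change of 0.25. With library totals it was above 0 for 31, and the median of all genes moved to -0.11. Library totals gave 1 call among the rod genes and called 1.65% of all genes. Impg2 was closest to a call, with 358 to 461 (median 411) CPM in WT + NACET against the WT values given above, all of which were lower. The log2 change was 0.48 ± 0.13 (SE, edgeR adjusted p = 0.0672), with a 95% interval from 0.20 to 0.76. Fscn2, which bundles actin in photoreceptors, was at 533, 565 and 697 CPM in WT and 717 to 906 (median 748) in WT + NACET, again without overlap. For Fscn2 the log2 change was 0.36 ± 0.11 (SE, edgeR adjusted p = 0.0854), with a 95% interval from 0.14 to 0.59. With both Akita replicate 4 and Akita + NACET replicate 5 left out of the common fit, 5 rod genes were called here, although neither library belongs to these groups. That fit called 4.89% of all genes here. Without WT replicate 3 there were 2 calls, and 1.07% of all genes were called.

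Treated diabetic mice were not told apart from untreated WT mice at these genes. In Akita + NACET vs WT none of the 39 was called by edgeR or by DESeq2, where 0.00618% of all genes tested passed in either direction, and none had an unadjusted p under 0.05. The median log2 change was 0.034, with 25 genes above 0 and 14 below, and it ran from -0.059 without WT replicate 1 to 0.19 without WT replicate 3. Rcvrn had the smallest p, with its WT values at 1792, 1513 and 1960 CPM, 4 of the 5 Akita + NACET libraries below them all and replicate 3 between them. The log2 change was -0.33 ± 0.18 (SE, edgeR adjusted p = 0.9996), with a 95% interval from -0.70 to 0.036. Gngt1 came next, with 3661, 4211, 4660.3, 4321 and 3074 CPM in Akita + NACET. For Gngt1 the log2 change was -0.25 ± 0.14 (SE, edgeR adjusted p = 0.9996), with a 95% interval from -0.54 to 0.047. Intervals of this width hold changes in either direction, so the absence of calls does not show that the levels were equal. The widest interval was that of Esrrb, from -0.17 to 0.94, and that of Gnb1 ran from -0.29 to 0.30.

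Between the treated groups, 8 of the 39 genes fell in Akita + NACET vs WT + NACET (20.5%) and none rose, where 7.26% of all genes tested fell. They were Rcvrn, Gngt1, Pde6a, Aipl1, Sag, Pde6g, Impg2 and Fscn2. The median log2 change of the 39 was -0.19, with 33 below 0, or 27 with library totals. Under library totals 10 fell, 1 rose and the median of all genes moved to 0.10. That fit called 16.4% of all genes in either direction, against 13.3% with TMM. Rcvrn ran from 1818 to 2564 (median 2169) CPM in WT + NACET, and each Akita + NACET library was lower. Rcvrn fell, with a ratio of 0.648 and a log2 change of -0.63 ± 0.15 (SE, edgeR adjusted p = 0.0112). Gngt1 was at 4660.2 to 6720 (median 5504) CPM in WT + NACET, where replicate 4 matched the highest Akita + NACET library to within 1 CPM. The change of Gngt1 on the log2 scale was -0.50 ± 0.12 (SE), a ratio of 0.708 (edgeR adjusted p = 0.0116). Pde6a, on chromosome 18, was at 2666 to 3336 (median 2839.8) CPM in WT + NACET and 2082, 2036, 2262, 2166 and 1866 in Akita + NACET, without overlap. By edgeR, Pde6a fell to 0.708 times the level in WT + NACET (log2 change -0.50 ± 0.13, SE, adjusted p = 0.0152). Aipl1, which phosphodiesterase 6 needs to fold, was at 1161 to 1581 (median 1269) CPM in WT + NACET. It fell with a log2 change of -0.47 ± 0.13 (SE), a ratio of 0.724 (edgeR adjusted p = 0.0252). The count was 2 without Akita + NACET replicate 5, where 5.33% of all genes were called, and 4 without replicate 2 of that group (8.5%). It was 3 without WT + NACET replicate 3 (6.94%). With the percentage of reads off the exons in the fit it was 0 (1.2%). That percentage overlapped between the treated groups (14.3 to 19.8% and 9.55 to 16.5%), so percentage and group can be told apart there in part. Whether the percentage accounts for these changes was not tested.

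The change after NACET differed between the genotypes. The interaction of genotype with NACET, which is the log2 change after NACET in Akita minus that in WT, was called for 25 of the 39 genes (64.1%), all negative, where 10.2% of all genes tested were called with a negative sign. Its median was -0.66 (-1.10 to -0.11) with all 39 below 0, or 35 with library totals. Under library totals 19 were called and the median of all genes moved to 0.30. That fit called 27.4% of all genes in either direction, against 20.3% with TMM. The called genes were 3 of 3 phosphodiesterase subunits, 3 of 3 channel and exchanger genes, both matrix genes, 4 of 5 transducin genes, 6 of 8 disc and axoneme genes, 3 of 6 of the shut-off, 2 of 4 transcription factors, 1 of 4 retinoid genes and 1 of 4 of cGMP resynthesis.

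Impg2 had the smallest p of the interaction. Its log2 change after NACET was 0.48 in WT and -0.52 in Akita. The difference was -0.9995 ± 0.18 (log2, SE, edgeR adjusted p = 0.0026). For Nrl the values were 0.41 and -0.49, with 2381 to 3136 (median 2588) CPM in WT + NACET and 2057, 2118, 2358, 2278 and 1565 in Akita + NACET. The difference was -0.90 ± 0.20 (log2, SE, edgeR adjusted p = 0.00574). For Rcvrn they were 0.30 and -0.81. The difference was -1.10 ± 0.24 (log2, SE, edgeR adjusted p = 0.00577). For Gnb1 they were 0.33 and -0.53, and Gnb1 was at 18207 to 23988 (median 19744) CPM in WT + NACET. The difference was -0.87 ± 0.19 (log2, SE, edgeR adjusted p = 0.00608). For Gucy2f, which was also called, they were 0.033 and -0.74. With any single library left out the count was between 14 and 27. It was 14 without WT replicate 1, where 10.3% of all genes were called, and 15 without WT replicate 2 (10.5%). Without both Akita replicate 4 and Akita + NACET replicate 5 it was 22 (14.3%). When the percentage of reads off the exons entered the fit, no rod gene was called, with a median of -0.39 and 35 of 39 below 0. That fit called 0.105% of all genes. The percentage of Akita lay below that of WT and of Akita + NACET without overlap. That of WT + NACET (9.55 to 16.5%) overlapped the range of every other group. The fit can therefore tell percentage and group apart only in part. Whether the percentage accounts for the interaction was not tested.

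**Figure D5:**
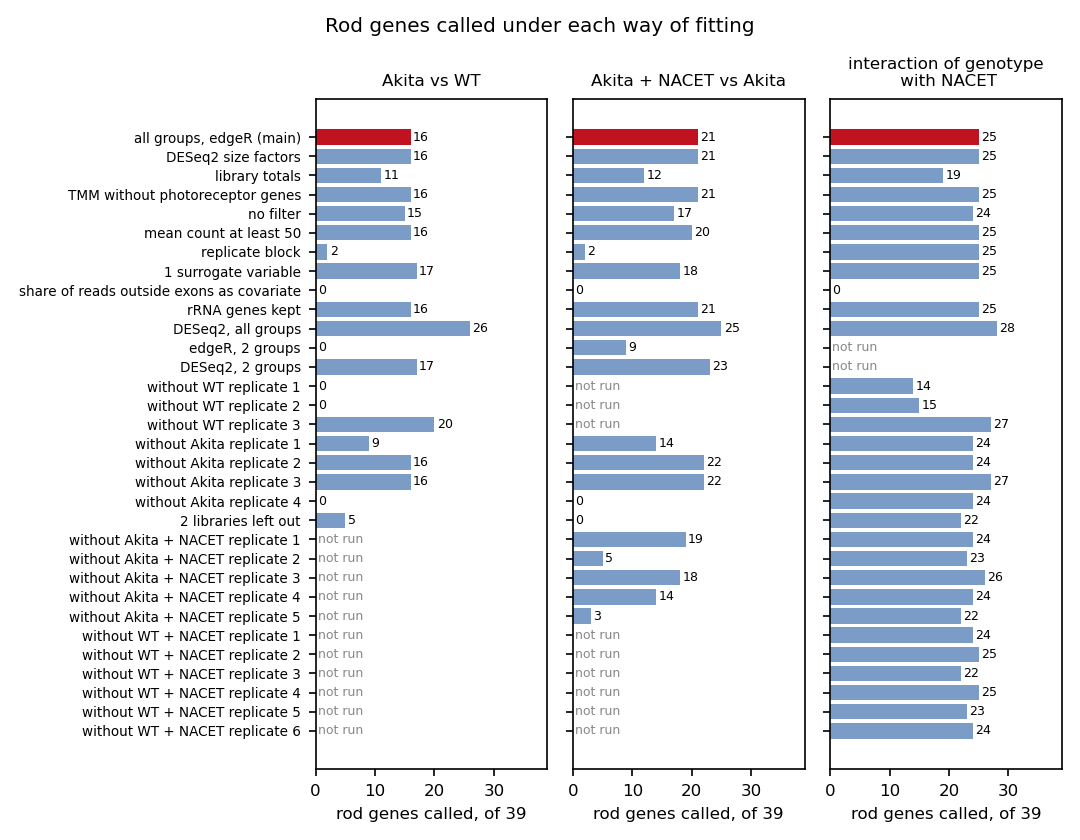
Number of the 39 rod genes called (edgeR or DESeq2 adjusted p at most 0.05) in 3 comparisons, under the design used in the text (red) and under each alternative (blue), where "not run" marks alternatives that do not bear on a comparison. The counts for Akita vs WT and Akita + NACET vs Akita fall to 0 without Akita replicate 4, whereas the interaction has 24 calls there, and all 3 counts are 0 with the covariate of reads outside exons. That covariate did not overlap between Akita and WT or Akita + NACET, so the fit with it cannot tell covariate and group well apart there. For the interaction it can in part, as WT + NACET overlapped every other group.

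The genes called and not called differed in kind from one comparison to the next. In Akita vs WT the 16 that rose had a median level of 276 RPKM and a median exon length of 5118 bases, against 566 RPKM and 3002 bases for the other 23. In the interaction the order was the opposite, with 942 RPKM and 3159 bases for the 25 called and 180 RPKM and 6120 bases for the other 14. In Akita + NACET vs Akita the lengths were closer, at 3587 and 3439 bases.

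Other genes of photoreceptors went the same way in part. Of 27 further photoreceptor genes found in the files, 5 rose in Akita vs WT, where 3.96% of all genes tested rose. In Akita + NACET vs Akita 6 of the 27 fell, against 5.14% of all genes tested. The median log2 changes of the 27 were 0.30 and -0.23. In Akita + NACET vs WT + NACET 2 of the 27 rose and 2 fell, where 973 of the 16183 genes tested rose and 1175 (7.26%) fell. The interaction was called positive in 3 of the 27 and negative in 7, against 1640 and 1649 (10.2%) of the 16183. Cdhr1, a cadherin of the outer segment base, rose by 0.63 ± 0.16 (log2, SE) in Akita (edgeR adjusted p = 0.0284) and changed by -0.66 ± 0.14 after NACET (edgeR adjusted p = 0.0193). Of 11 cone genes, none was called in Akita vs WT and 4 fell in Akita + NACET vs Akita, among them Gngt2, the γ subunit of cone transducin, with -0.58 ± 0.10 (edgeR adjusted p = 0.0161). Against WT + NACET, 6 of the 11 cone genes fell in Akita + NACET, where 7.26% of all genes tested fell.

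Among markers of inner retinal cells and vessels some were called, and the calls in these 2 comparisons had the opposite sign to those of the rod genes. Of 10 amacrine genes, 6 fell in Akita vs WT and 3 rose in Akita + NACET vs Akita, where 3.68% of all genes tested fell and 4.51% rose, and their summed level was 690 to 914 CPM in WT, 435 to 624 in Akita and 652 to 795 in Akita + NACET. The 4 genes of OFF bipolar cells summed to 75.9 to 101 CPM in WT, 37.5 to 67.9 in Akita and 62.7 to 110 in Akita + NACET, and 2 of them rose in Akita + NACET vs Akita while none was called in Akita vs WT. Of 10 genes of Müller glia, 2 fell in Akita vs WT and 2 rose in Akita + NACET vs Akita, although their median log2 change after NACET was 0.00086, and the same counts held for 9 of endothelium and pericytes, where Cldn5, the tight junction gene of vessels, changed by -2.11 ± 0.59 and 2.14 ± 0.54 (log2, SE, edgeR adjusted p = 0.0365 and 0.0239). No gene of the lists for ON bipolar cells, horizontal cells, ganglion cells, microglia or pigment epithelium was called in these 2 comparisons. The pigment epithelium genes summed to 175 to 729 CPM in WT, 82.8 to 264 in Akita, 110 to 738 in Akita + NACET and 610 to 1570 in WT + NACET. With all photoreceptor genes left out of the TMM scaling, 16 rod genes rose in Akita vs WT and 21 fell in Akita + NACET vs Akita, the counts given above. These genes are few among the 16183 tested, so leaving them out could move the scaling little, and nothing on cell makeup follows from it. With library totals in place of TMM the counts were 11 and 12, where 11.5% and 15.8% of all genes were called in either direction. The part of cell makeup in the rod gene changes was not tested, and any difference between the groups other than genotype and treatment cannot be told apart from them.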

How the data were processed

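Retinal RNA was sequenced as poly(A) libraries (TruSeq RNA v2, single end), and the authors aligned the reads to mm9 with TopHat 2.1.0 and counted them over exons with HTSeq 0.11.2, without regard to strand. The authors deposited the raw read counts per gene, 1 file a library. The entry without a name (0.00544% of counts on average) and 206 rRNA genes (0.977%) were left out.

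Groups were compared by edgeR's quasi-likelihood F test (version 4.0.16, R 4.3.3) with TMM scaling, the default filter (minimum count 10, minimum total 15) and all 4 groups in 1 fit, with Benjamini-Hochberg adjustment over 16183 genes and calls at an adjusted p of at most 0.05. The common dispersion was 0.0347. This edgeR fit was also run on simulated counts with known changes. SEs follow from the F statistic, and 95% intervals from them and the fit's degrees of freedom. The study used DESeq2, an alternative here (1.42.0). Other alternatives changed the scaling, the filter, the covariates and the libraries. The depth, 11495596 to 17814479 counts, left at least 217 reads for each member in each library.

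The 39 members and the marker lists were chosen with earlier results of these data known. Named with full values were, for each comparison, the members with the smallest p (4, or 2 where none was called), those with the highest RPKM of each role, and members added after their values were seen (Esrrb, Unc119, Nr2e3, Sag and Prph2 among them). Promoter windows were RefSeq's (GRCm38.p6), and windows were not used for 8 members.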

Additional observations from a re-analysis of the deposited data

Results flagged for a closer look

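Of 60 groups of values tested for 1 library far from the rest (Dixon's criterion, groups of 4 to 6), 11 held one. Chance alone gives about 1 in 20 for independent groups, but these genes were measured in the same libraries and the 11 come from 3 libraries, so the count cannot be read against it. Akita replicate 4 stood above the other Akita libraries in 6 genes: Impg2 at 594 CPM (others 401 to 419.6), Prom1 at 2580 (1595 to 1740), Crx at 1572 (896 to 953), Rcvrn at 3521 (2017 to 2204), Pde6a at 3985 (2355 to 2608) and Aipl1 at 1863 (1193 to 1258). Akita + NACET replicate 5 stood below its group in Pde6g at 1334 CPM (2278 to 2581), Aipl1 at 702 (1006 to 1069) and Gnat1 at 8426 (11790 to 12950). WT + NACET replicate 3 stood above its group in Fscn2 at 906 CPM (717 to 766) and Gnb1 at 23990 (18210 to 20280).

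The change after NACET differed between Akita and WT in 25 genes, tested as an interaction in edgeR (log2, Akita minus WT). In transducin and its partners it was -1.08 for Pdc, -0.91 for Gnat1, -0.87 for Gnb1 and -0.55 for Gngt1. In phosphodiesterase it was -1.10 for Pde6g, -0.84 for Pde6a and -0.57 for Pde6b, and in the channel and exchanger -0.82 for Slc24a1, -0.77 for Cngb1 and -0.66 for Cnga1. Of the shut-off genes, Rcvrn had -1.105, Gnb5 -0.64 and Sag -0.60, and the cyclase Gucy2f had -0.78. The factors Nrl and Crx had -0.90 and -0.77. Of the disc and axoneme genes, Reep6 had -0.98, Aipl1 -0.90, Prom1 -0.87, Rom1 -0.71, Prph2 -0.66 and Fscn2 -0.54. The carrier Rbp3 had -0.89, and the matrix genes Impg2 and Impg1 had -0.9995 and -0.71. Of 29 other ways of fitting, the calls of Gngt1, Sag and Impg1 held in 12, 17 and 20, and each of the others in 25 to 28. With the percentage of reads off the exons in the fit, none of these was called. That percentage overlapped between WT + NACET and every other group, but not between Akita and WT or Akita + NACET. The fit can therefore tell percentage and group apart only in part.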

How the results depend on the processing

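No rod gene called in a comparison changed sign there under any alternative run. The numbers of rod genes called moved as follows, and the cause was not tested. With the percentage of reads off the exons in the fit there were 0 for the interaction (0.105%) and 0 in Akita + NACET vs WT + NACET (1.2%). There were also 0 in Akita + NACET vs Akita and 0 in Akita vs WT, neither of which had any gene called. That percentage did not overlap between Akita and WT or Akita + NACET, so the fit cannot tell percentage and group well apart there. WT + NACET overlapped every other group in that percentage. In comparisons with WT + NACET the fit can therefore tell them apart in part. In fits of 2 groups, edgeR called 0 in Akita vs WT (0.965%) and 9 in Akita + NACET vs Akita (4.56%). In such fits DESeq2 called 8 in WT + NACET vs WT (6.52%) and 15 in Akita + NACET vs WT + NACET (19.4%). DESeq2 with all groups called 26 in Akita vs WT (13.6%) and 2 in WT + NACET vs WT (4.6%). Library totals gave 1 in WT + NACET vs WT (1.65%) and 12 in Akita + NACET vs Akita (15.8%). With both Akita replicate 4 and Akita + NACET replicate 5 left out, chosen after seeing the data, Akita vs WT had 5 calls (3.84%). In that fit WT + NACET vs WT also had 5 (4.89%) and Akita + NACET vs Akita 0 (0.0062%). Leaving out 1 library at a time gave 0 to 20 in Akita vs WT (0 to 9.2%) and 0 to 2 in WT + NACET vs WT (0.437 to 2.04%). It gave 0 to 22 in Akita + NACET vs Akita (0.00617 to 10.9%). It gave 2 to 9 in Akita + NACET vs WT + NACET (5.33 to 15.0%) and 14 to 27 for the interaction (10.3 to 21.9%). In Akita + NACET vs WT the count was 0 in all fits.

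The groups share replicate numbers, but in only 4 of 22 same-numbered pairs did the deviations from the group means correlate above 0.1 (-0.33 to 0.34), and 2 of 18 libraries were closest to one of their own number, so the libraries were not taken as paired. With a replicate block Akita vs WT had 2 calls, where 3.13% of all genes were called, and Akita + NACET vs Akita also 2 (1.35%). There were 25 for the interaction (16.4%).

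Counting each called rod gene under each alternative, 197 calls held and 123 were lost in Akita vs WT, 294 and 168 in Akita + NACET vs Akita, 157 and 35 in Akita + NACET vs WT + NACET, and 647 and 78 for the interaction. Each member had at least 217 reads in each library, while WT had 3 libraries, the fewest of any group.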
